A study of Mus musculus with 18 samples.

Results

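The comparison of dko with mdx heart rests on 6 of the 18 expression arrays of this series: the 3 arrays of dko heart and the 3 of mdx heart, the control by its label. All hold total RNA of mouse heart muscle at 8 weeks of age. The mdx mouse carries a mutation of Dmd and lacks dystrophin. In usual usage dko stands for a mouse that lacks utrophin as well, so the loss of dystrophin is shared by both groups, although the term is not explained in the labels. They give neither strain nor alleles nor the part of the heart that was taken. The other 12 arrays, of leg and extraocular muscle with the same labels (3 per group), entered the fit to estimate the spread and serve here only as a comparison. Nothing says that the 3 arrays of a group came from separate animals, so part of the spread between arrays may be technical. Each p-value of the fit rests on a spread pooled over the 18 arrays of all 3 tissues, not on the heart arrays alone.

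Dystrophin ties the actin cytoskeleton of the heart muscle cell, through a complex of membrane proteins, to laminin outside the cell, and shields the membrane during contraction. Utrophin is its close relative and binds the same partners; in mdx muscle it is found along the membrane where dystrophin is missing. Mice without dystrophin show a mild heart disease that develops late in life, whereas mice without both proteins weaken early and die young. In a failing or overloaded heart, genes of the fetal programme (natriuretic peptides, slow myosin, skeletal actin), of matrix deposition and of inflammation are known to be raised, and these groups were therefore described member by member.

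Values are hybridization intensity on a linear scale, which each array of the authors' table carries for 12422 probe sets besides 66 controls. The heart arrays numbered 3 stood apart, in dko and mdx alike: their medians were 529.4 to 573.75 units and their maxima 63031.8 to 71818.9, against 629.1 to 661.65 and 33355.1 to 40003.2 on the arrays numbered 1 and 2. Dko and mdx heart arrays of one number deviated from their group means together (correlation across probe sets 0.568, 0.432 and 0.697 for numbers 1, 2 and 3), while arrays of different numbers gave -0.542 to 0.112. What the numbers mark is not given. Differences were therefore taken within the 3 pairs of one number, on log2(intensity + 166.7), and are written as dko minus mdx. Of 146 genes described by value, 54 had more than 1 probe set, and for 27 of these at least 1 other had the opposite sign. The 95% intervals come from a limma fit of all 18 arrays with the replicate number within each tissue as a block.

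The arrays carried the transcripts expected of heart. Of 16 cardiomyocyte genes 11 read higher on every heart array than on every leg array, among them the cardiac myosin heavy chain Myh6 (6873.7 to 68085.4 units in heart and 53.6 to 132.9 in leg), the cardiac ryanodine receptor Ryr2 (11668.1 to 24165.7 and 44.6 to 227.8) and the transcription factor Nkx2-5 (1487.7 to 6981.5 and 73.8 to 139.6). Of 22 skeletal muscle genes 17 read lower on every heart array than on every leg array; the fast troponin Tnnt3 lay at 40.5 to 385 units in heart and 19491 to 73098.7 in leg. The other 5 cardiomyocyte genes (Actc1, Myl2, Myl3, Fabp3 and Tnnc1) overlapped between heart and leg. Of these the probe set 93050_at of Myl2, the regulatory light chain of ventricular and slow muscle myosin, read 60.5 to 30900 units over the 6 hearts, against 309.2 to 25841.6 in leg.

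Utrn, the gene of utrophin, read lower in dko hearts on both of its probe sets. Probe set 92507_at read 219.9, 292.3 and 262.1 units in dko hearts, against 671.2, 587.6 and 672.1 units in mdx hearts. The dko arrays lay below all mdx arrays, as they did on 92508_s_at, which read 348.4, 413.4 and 297.2 units in dko hearts, against 588.4, 681.4 and 877.3 units in mdx hearts. The differences were -0.93 (95% interval -1.23 to -0.64) and -0.76 (-1.42 to -0.095). Over all 12422 probe sets neither was called, with adjusted p of 0.188 and 0.905 (limma, Benjamini-Hochberg), although 92507_at had the second smallest p of the table. In an exact two-sided permutation test both probe sets gave p = 0.1 with the 3 arrays against 3 and p = 0.25 with exchange within pairs, the smallest values these designs allow. Which part of the transcript the probe sets read, relative to any deleted part, is not known here. Dmd, whose probe set 93623_at read 284.7, 154.1 and 315.2 units in dko hearts, against 279, 221.7 and 212.3 units in mdx hearts, overlapped between the groups (log2 difference 0.03, 95% interval -0.38 to 0.44; exact p = 0.9 and 0.75).

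No probe set was called in heart. At an adjusted p under 0.05 the count was 0 of 12422 (0%), the smallest adjusted p was 0.083, and 668 probe sets (5.38%) had an unadjusted p under 0.05, where 5% is the share under no difference at all. They split into 252 higher (2.03% of all) and 416 lower in dko (3.35%). Without the replicate block the count was also 0, with 221 (1.78%) at an unadjusted p under 0.05. Of all probe sets 46.3% had a positive difference and the median difference was -0.017. The 2 groups did not overlap on 576 probe sets (4.64%): dko lay above on 239 (1.92%) and below on 337 (2.71%). Dko was higher in 3 of 3 pairs on 1529 probe sets (12.3%) and lower in 3 of 3 on 1827 (14.7%). The observed differences were small, with 5% of them below -0.42 and 5% above 0.35; 374 probe sets (3.01%) were past 1.5-fold, 30 (0.242%) past 2-fold and 0 past 4-fold.

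How large a change could have been missed follows from the spread between pairs. The 95% interval reached to 0.41 on either side of the estimate at the median probe set, on the log2 scale (1.32-fold), with quartiles of 0.33 and 0.53. A single changed probe set would have needed an observed difference of 1.69 (3.23-fold) at the median spread to be called, and 0.96 (1.94-fold) if it were 1 of 100 called together. For a true change to be called with a chance of 80%, the sizes were 2.00 (3.99-fold) alone and 1.17 (2.25-fold) as 1 of 100. A gene tested by itself, with no adjustment, needed 0.57 (1.48-fold). Precision depended on brightness. With the probe sets cut at the quartiles of mean heart intensity, the median reach was 0.42 in the dimmest group, 0.51 in the next, 0.40 above it and 0.34 in the brightest. The offset of 166.7 compresses the differences of dim probe sets, so their narrow intervals do not bound a fold of the raw intensity.

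Read as limits, the intervals of 11299 probe sets (91%) lay wholly within 2-fold in either direction, those of 6706 (54%) within 1.5-fold and those of 12400 (99.8%) within 4-fold. In the brightest group 96.5% lay within 2-fold, against 80.6% in the group next to the dimmest. The median SD of the 3 pair differences was 0.266 in heart, 0.281 in leg and 0.273 in extraocular muscle. On the same scale, differences past 2-fold numbered 30 in heart, 139 in leg and 55 in extraocular muscle.

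**Figure D1:**
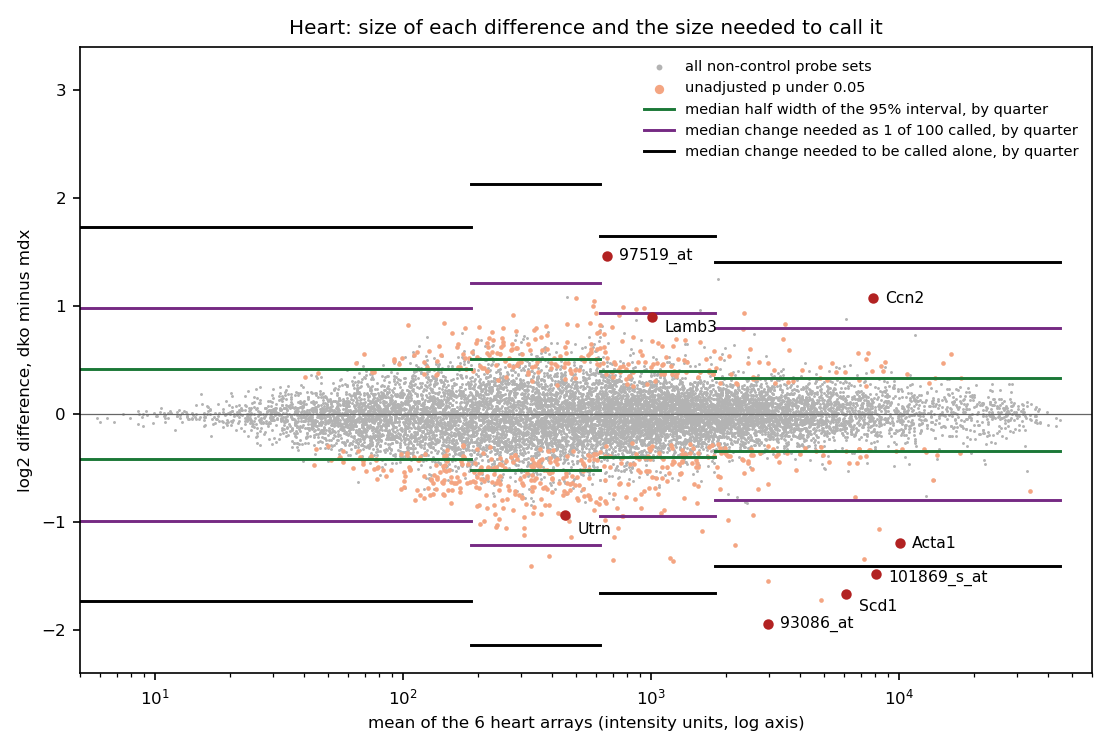
Log2 difference (dko minus mdx) of every non-control probe set in heart against the mean of the 6 heart arrays in intensity units (log axis); orange points have an unadjusted p under 0.05, and the lines give, for each quartile group of intensity, the median reach of the 95% interval and the median difference needed to be called as 1 of 100 or alone. Points past the outer lines, such as 101869_s_at, Scd1 and 93086_at, were not called (adjusted p = 0.083, 0.729 and 0.48).

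The group of genes with the largest share of members leaning one way was that of antigen presentation and the interferon response. Of its 33 genes measured 29 had a negative difference, 18 were lower in 3 of 3 pairs, and the median was -0.26, against -0.017 over all probe sets. Of the 33 genes 0 were called, 10 had an unadjusted p under 0.05 and lower values, against 3.35% of all probe sets, and 0 had such a p and higher values. The median was -0.15, -0.28 and -0.33 in pairs 1, 2 and 3. Summed over the list, intensity was 81217 to 87669 units in dko hearts, against 95127 to 112504 in mdx hearts, with no overlap. Without the pair numbered 3 the median was -0.23. In leg the list had a median of 0.21 and in extraocular muscle of -0.024.

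Its members took part in several steps. H2-DMb1, a chain of the chaperone that loads peptides on class II molecules, had the largest negative difference and read 922.6, 279.2 and 321.5 units in dko hearts, against 1296, 781.6 and 1041 units in mdx hearts (log2 difference -0.94, 95% interval -1.33 to -0.55, adjusted p = 0.468). Dko array 1 lay within the mdx range. Tap1, a subunit of the pump that brings peptides to class I molecules, read 836.7, 940 and 907 units in dko hearts, against 1315, 1429 and 1237 units in mdx hearts (log2 difference -0.49, 95% interval -0.79 to -0.19), while its dimmer probe set overlapped (-0.022). Psmb8, a subunit of the immunoproteasome, read 1444, 1406 and 1658 units in dko hearts, against 1988, 2142 and 2409 units in mdx hearts (log2 difference -0.49, 95% interval -0.82 to -0.16). On 103035_at of Tap1 and on Psmb8 the groups did not overlap, and neither did they on Psmb10, another such subunit (3810.3, 3033 and 3562 in dko and 4970.3, 3858 and 4788 in mdx; -0.37). The class II chain H2-Eb1 (-0.51), the class I heavy chain H2-K1 (-0.38), the interferon-induced Isg15 (-0.82), Ifit2 (-0.63), Gbp3 (-0.49) and Ifi27 (-0.39) made up the rest of the 10. Their intervals excluded 0 while the adjusted p of the 10 ran from 0.468 to 0.905. With the heart arrays alone the intervals of H2-Eb1 (-1.08 to 0.051) and Ifi27 (-0.78 to 0.00049) included 0, and those of the rest of the 10 excluded it. The interferon-induced GTPase Mx1 had the largest positive difference (0.26, interval -0.17 to 0.70) at a dim level of 152.1, 104.6 and 129.9 units in dko and 26.4, 94.1 and 127.1 in mdx.

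Genes of B cells and antibodies leaned the same way. Of 14 B cell markers 12 were negative, with a median of -0.19 and 0 called. Summed intensity was 6153 to 9745 units in dko hearts, against 9571 to 11839 in mdx hearts, with a small overlap. Without Ighm the sums were 4909 to 7637 in dko and 6671 to 8712 in mdx, with a wider overlap. Cd79b, a signalling chain of the B cell receptor, read 145.9, 184.1 and 84.5 units in dko hearts, against 287.4, 577.7 and 560.2 units in mdx hearts (log2 difference -1.05, 95% interval -1.54 to -0.57). Ighm, the heavy chain of IgM, read 2108, 1828 and 1244 units in dko hearts, against 3068, 4303 and 2899.6 units in mdx hearts (log2 difference -0.93, 95% interval -1.38 to -0.48), on the brightest and most negative of its 16 probe sets, whose median was -0.14 and range -0.93 to 0.19. On both probe sets, all dko arrays lay below all mdx arrays. Igkv6-23, a variable segment of the kappa light chain, read 884.4, 591 and 316.2 units in dko hearts, against 1159, 2968 and 1405 units in mdx hearts (log2 difference -1.36, 95% interval -1.97 to -0.75), with a pair difference of -0.34 in pair 1 and of -2.05 and -1.70 in pairs 2 and 3. Of 61 immunoglobulin probe sets with 1 symbol (26 genes) 45 were negative, 6 had an unadjusted p under 0.05 and lower values, and 1 such a p and higher values. Their median was -0.14. Of all probe sets 46.3% were positive, and 3.35% were lower and 2.03% higher at such a p. Related segments share sequence, so a probe set of 1 segment may also read others. Btk, a kinase of B cells and myeloid cells, had the largest positive difference of the B cell markers (0.65, interval -0.02 to 1.32). In these bulk samples fewer cells of a type and less RNA per cell cannot be told apart.

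Of other genes of white blood cells, Fermt3 and AW112010 stood among the 12 leading lower genes, and Cd83 was named after its values were seen. Fermt3, the kindlin that activates integrins in blood cells, read 380.9, 343.5 and 521.6 units in dko hearts, against 670.5, 646.5 and 1335 units in mdx hearts (log2 difference -0.80, 95% interval -1.18 to -0.43). AW112010, an interferon-inducible transcript of lymphocytes and macrophages, read 768.8, 1017 and 837.7 units in dko hearts, against 1112, 1724 and 1485 units in mdx hearts (log2 difference -0.61, 95% interval -0.92 to -0.31). The groups did not overlap on either. Cd83, a surface protein of activated dendritic and B cells, read 82.7, 170 and 146.6 units in dko hearts, against 491.7, 414.6 and 531.6 units in mdx hearts on probe set 99434_at (log2 difference -1.11, 95% interval -1.57 to -0.66), also without overlap, while its other probe set 103040_at overlapped (-0.34). Macrophage markers did not share this lean: 14 of 29 were positive, the median was -0.0032, and summed intensity was 46945 to 49457 units in dko hearts, against 47222 to 50215 in mdx hearts. Lgals3, the galectin of activated macrophages, had their largest positive difference (782.8, 708 and 1442 units in dko hearts, against 333.3, 505.6 and 810 in mdx hearts; log2 difference 0.68, 95% interval 0.081 to 1.27). Cd53, a tetraspanin of white blood cells, had the largest negative one (-0.62). The lysosomal protease Ctss (0.26, interval -0.27 to 0.78) overlapped between the groups. T and NK cell markers had a median of -0.045, with Rag1 (0.70), the recombinase of developing lymphocytes, and the granule protease Gzma (-0.48) at the ends. Neutrophil and mast cell markers had a median of -0.11, between the tryptase Tpsb2 (0.43) and the receptor Csf3r (-0.26, but 0.20 and 0.040 on its dimmer probe sets). The other probe set of Tpsb2, brighter in heart, had the opposite sign (-0.49, -0.89 to -0.10).

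Genes of fat cells and of fat synthesis held several of the largest negative differences. Of 15 adipocyte markers 10 were negative, and 7 had an unadjusted p under 0.05 and lower values, against 3.35% of all probe sets. Of the 15, 0 were called, and the median was -0.42. The medians of the pairs were -0.0012, -0.75 and -0.063, and without the pair numbered 2 the list's median was -0.12. It was -0.25 with the offset doubled. Summed intensity overlapped, at 49676 to 53844 units in dko hearts, against 47418 to 69032 in mdx hearts; without Lpl, which heart muscle itself makes, it was 17219 to 25949 in dko and 18818 to 39740 in mdx. Ucp1, the uncoupling protein of brown fat, read 422.2, 71.8 and 105.8 units in dko hearts, against 1628, 307.5 and 310.1 units in mdx hearts (log2 difference -1.14, 95% interval -1.57 to -0.70). Dko array 1 lay above mdx arrays 2 and 3, though dko was the lower of each pair. Retn, the adipocyte hormone resistin, read 225, 92.5 and 92.5 units in dko hearts, against 989.3, 684.5 and 244.9 units in mdx hearts (log2 difference -1.31, 95% interval -1.96 to -0.67), without overlap. Thrsp, a regulator of fat synthesis in fat and liver, read 1843, 958 and 1185 units in dko hearts, against 3303, 2807 and 2118 units in mdx hearts (log2 difference -0.98, 95% interval -1.38 to -0.59), also without overlap.

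Scd1, the desaturase that makes monounsaturated fatty acids, had the largest negative difference of the adipocyte markers and depended on the pair: it read 3127, 1795 and 1832 units in dko hearts, against 13668, 14454 and 1866 units in mdx hearts (log2 difference -1.66, 95% interval -2.72 to -0.61). Both arrays numbered 3 were alike, and the difference came from pairs 1 and 2. Fasn, fatty acid synthase (2252, 1696 and 1859.7 in dko and 4408, 4168 and 1785 in mdx; -0.69), had the same pattern. The fat hormone Adipoq (-1.08) and the carbonic anhydrase Car3 (-1.33), abundant in fat and slow muscle, differed most in pair 2, by -2.21 and -3.59. With the heart arrays alone the 95% intervals reached positive values for Fasn (-1.40 to 0.0085) and Car3 (-3.21 to 0.54). They stayed negative for Scd1, Retn, Ucp1 and Adipoq. Cidec, which coats lipid droplets, was dim (-0.42). Lpl, the lipase that frees fatty acids for uptake, had the largest positive difference (0.28, interval -0.068 to 0.62). The part of fat tissue attached to the samples in these differences was not tested.

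Among contractile genes, skeletal actin was lower in dko hearts. Acta1, the actin of skeletal muscle that the heart makes before birth and under load, read 4861, 6807 and 6606 units in dko hearts, against 14479.6, 13100.4 and 14452 units in mdx hearts (log2 difference -1.19, 95% interval -1.78 to -0.61, adjusted p = 0.535). All dko arrays lay below all mdx arrays and pair differences ran from -1.54 to -0.93. Casq1, the calcium buffer of the skeletal sarcoplasmic reticulum, read 1521, 1621 and 1656 units in dko hearts, against 3009, 2739 and 2771 units in mdx hearts, without overlap and with little spread within either group. Its fitted interval was wide (-2.52 to 0.98) because the fit pools the spread over tissues and leg pairs differed widely (SD 2.74, against 0.13 in heart). The heart arrays alone gave -0.77 (-1.10 to -0.44, adjusted p = 0.881). The light chain Myl1 of fast fibres also did not overlap (3746, 4478 and 4195 in dko and 6325, 6149.8 and 5347 in mdx; -0.50, -1.75 to 0.75). The heart arrays alone gave -0.87 to -0.14 for it (adjusted p = 0.881).

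As a list, 15 of 22 skeletal muscle markers were negative, with a median of -0.18, 0 called and 2 at an unadjusted p under 0.05 and lower, against 3.35% of all probe sets. Their summed intensity was 25587 to 30791 units in dko hearts, against 35971 to 39291 in mdx hearts, without overlap. This separation rested on Acta1: without it the sums were 19829 to 23984 in dko and 21519 to 26191 in mdx, and overlapped. Without the pair numbered 1 the list's median was -0.09, and without the pair numbered 2 it was -0.079. Besides Acta1 the other was the muscle regulatory factor Myf6, dim in heart (113.8, 65.2 and 70.5 in dko and 394.1, 295.1 and 78.2 in mdx; -0.68). Tnnt3 had the largest positive difference (0.41, interval -0.29 to 1.10). The ventricular light chain Myl2 read 1740.2, 60.5 and 7244 units in dko hearts, against 3140.2, 339.6 and 30900 units in mdx hearts. It was lower in each dko array than in its partner (log2 difference -1.34, 95% interval -2.17 to -0.51), yet arrays of one group differed far more than the genotypes did. The cardiac troponin Tnni3, a cardiomyocyte marker, was likewise lower in 3 of 3 pairs (14272, 15684 and 51669 in dko and 22962, 21190 and 71792 in mdx). Its difference was -0.53 (interval -1.45 to 0.40).

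**Figure D2:**
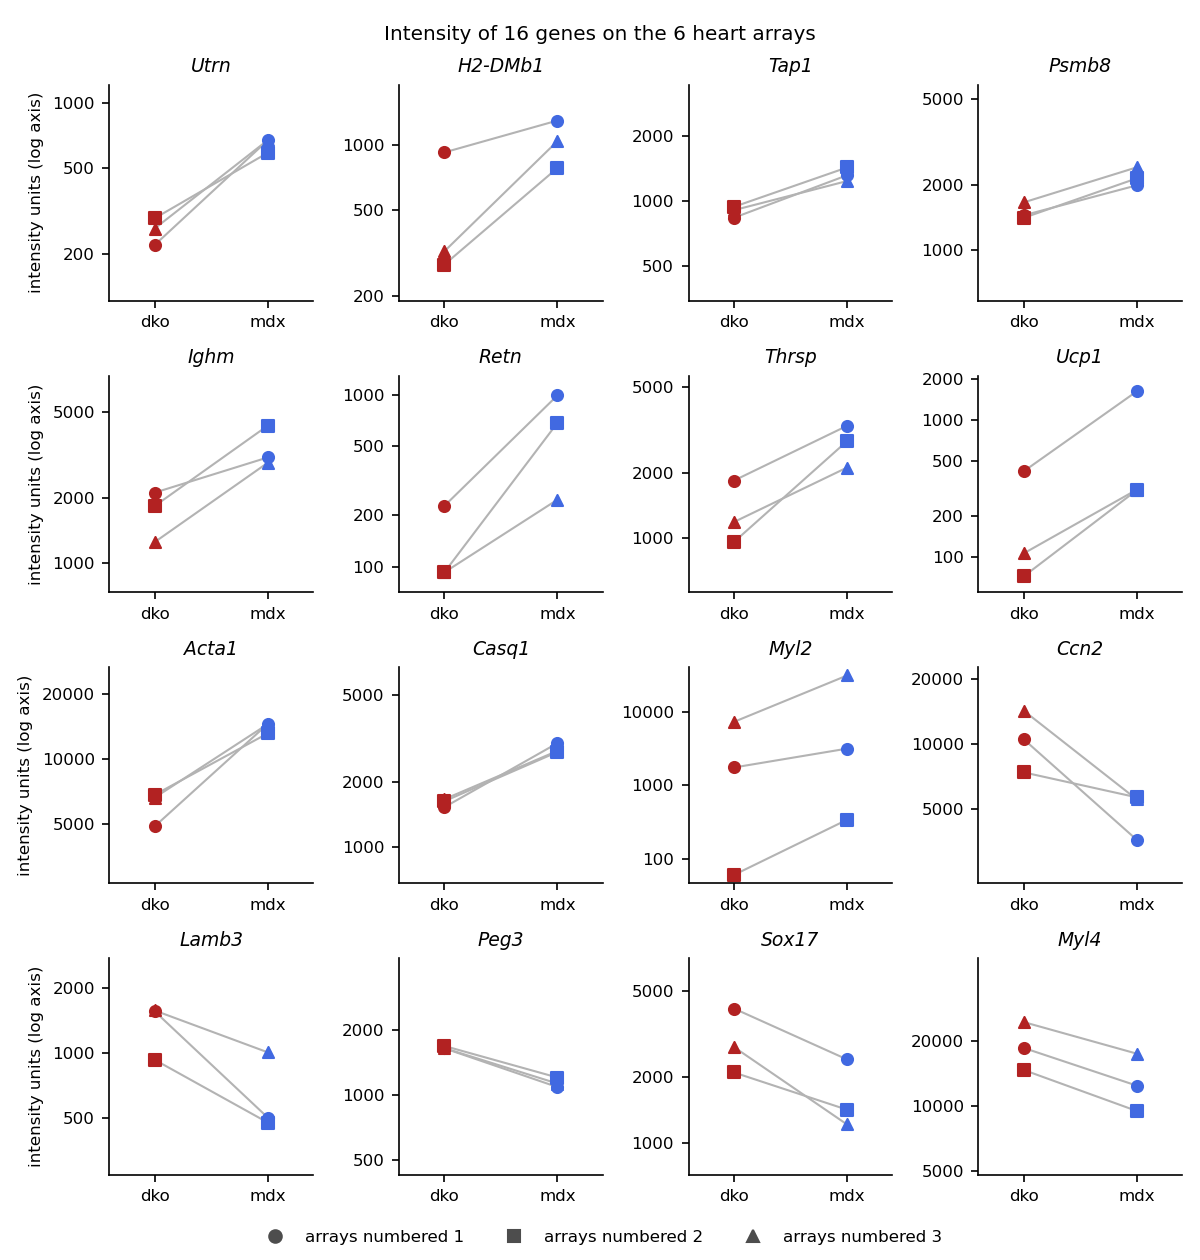
Intensity (units, log axis) of 16 genes on each heart array, dko left and mdx right, with grey lines joining the dko and mdx arrays of one number. All 3 lines slope the same way in every panel, the dko and mdx arrays do not overlap for Utrn, Tap1, Psmb8, Ighm, Retn, Thrsp, Acta1, Casq1, Ccn2 and Peg3, and for Myl2 the numbers differ more than the genotypes. Genes were chosen with results known, several of them for the same sign in 3 of 3 pairs, so the shared slopes are no test. Of all probe sets 12.3% were higher and 14.7% lower in 3 of 3 pairs, and 4.64% did not overlap.

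The probe set with the smallest p in heart, 101869_s_at, is assigned to several gene symbols and is left unnamed. It read 779.2, 705.9 and 12349 units in dko hearts, against 2152, 3104 and 29402 units in mdx hearts (log2 difference -1.48, 95% interval -1.86 to -1.10, adjusted p = 0.083). Dko was lower in 3 of 3 pairs, but array number set the level, with both arrays numbered 3 far above the rest, and the groups overlapped. Further probe sets with several symbols, 102906_at (358.6, 484.6 and 282 units in dko hearts, against 923.6, 1415 and 783.7 units in mdx hearts; -1.14) and 93086_at (1254, 812 and 921.7 units in dko hearts, against 4239, 8379 and 2097 units in mdx hearts; -1.94), did not overlap; the last held the largest negative difference of the whole table. The largest positive one was that of 97519_at, which the probe table leaves unnamed: 1331, 692 and 1134 units in dko hearts, against 175.3, 230.6 and 416.5 units in mdx hearts (log2 difference 1.47, 95% interval 0.71 to 2.22, adjusted p = 0.579), without overlap.

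Fewer probe sets were higher than lower in dko hearts at an unadjusted p under 0.05. By p the first was Lamb3, a laminin chain of epithelial basement membranes, at 1562, 931.9 and 1575 units in dko hearts, against 503.6, 477.5 and 1009 units in mdx hearts (log2 difference 0.90, 95% interval 0.52 to 1.28, adjusted p = 0.48). Dko array 2 lay below mdx array 3, and its other probe set read 0.12. Gspt1, the translation termination factor, read 4886, 3469.6 and 4836 units in dko hearts, against 2956, 2480 and 3063 units in mdx hearts (log2 difference 0.59, 95% interval 0.31 to 0.88). Peg3, a paternally expressed zinc finger protein, read 1644, 1685 and 1647 units in dko hearts, against 1088, 1204 and 1129 units in mdx hearts (log2 difference 0.48, 95% interval 0.19 to 0.77), with a narrow spread in each group and no overlap on either gene. Its other probe sets had the same sign (0.51 and 0.25). Sox17, a transcription factor of arterial endothelium, read 4167, 2109 and 2765 units in dko hearts, against 2423, 1418 and 1212 units in mdx hearts (log2 difference 0.78, 95% interval 0.38 to 1.18), and its other probe set had the same sign (0.91). Dbp, a clock-controlled transcription factor, read 697, 679.9 and 765.6 units in dko hearts, against 82.8, 518.7 and 256.1 units in mdx hearts (log2 difference 1.08, 95% interval 0.49 to 1.67), without overlap. The hour at which the tissue was taken is not given.

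The other leading higher genes were Thap7 (0.49), a repressor that binds chromatin, the cyclin Ccni (0.67), the lipid transporter Abca4 (1.04), the plasma glycoprotein Ahsg (0.74), the membrane glycoprotein Tpbg (0.52), the transcription factor Klf13 (0.99) and the anchoring protein Akap8 (0.97), with adjusted p from 0.586 to 0.702. For Klf13 and Akap8 other probe sets went the other way: Klf13 read -0.11 on 160617_at, and Akap8 -0.25 on 161088_r_at and -0.20 on 161596_f_at. The remaining leading lower genes were Pheta1 (-0.83), an adaptor of endosomal traffic, and Fam117a (-0.74), whose dko arrays (678.1, 798.9 and 802.2) all lay below the mdx arrays (1304, 1436 and 1382).

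Most cardiomyocyte markers had differences near 0. Furthest from it were Myl2 (-1.34, -2.17 to -0.51) and the cardiac troponin Tnni3 (-0.53, -1.45 to 0.40), both lower in 3 of 3 pairs. Of the heart genes outside that list, Acta1 (-1.19, -1.78 to -0.61) and Myl4 (0.56, 0.11 to 1.01) also lay away from 0. Myh6, the adult cardiac myosin heavy chain, read 24958, 9180.2 and 62137 units in dko hearts, against 30609, 6874 and 68085 units in mdx hearts (log2 difference -0.0051, 95% interval -0.52 to 0.51). Its level differed far more between array numbers than between genotypes. The cardiac actin Actc1 (-0.049, -0.42 to 0.32), the calcium pump Atp2a2 (-0.15, -0.64 to 0.35), the atrial light chain Myl7 (0.14, -0.26 to 0.54) and the troponin Tnnc1 (0.011, -0.35 to 0.37) all had intervals within 2-fold. Another bright probe set of Actc1, 101029_f_at, read lower with overlap (-0.43, -0.98 to 0.12). Of 16 cardiomyocyte markers 9 were positive and the median was 0.015, with Corin, the protease that activates natriuretic peptides, at the upper end (0.30) and Myl2 at the lower. In the list of cardiac sarcomere genes the median was -0.031 and the largest positive difference was that of Myom2, an M-band protein (10791, 8656 and 10075 units in dko hearts, against 7121, 6833 and 8328 units in mdx hearts; log2 difference 0.40, 95% interval 0.061 to 0.73), without overlap. Pair medians of that list were -0.29, 0.23 and -0.14, so the pairs did not share a direction.

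The fetal and stress programme gave no common direction. Nppa, atrial natriuretic peptide, read 17653, 16209.8 and 18264 units in dko hearts, against 15976, 11864 and 18371 units in mdx hearts (log2 difference 0.19, 95% interval -0.20 to 0.59). Nppb, the other natriuretic peptide, read 20946, 22901 and 26582 units in dko hearts, against 22151, 20842 and 37878 units in mdx hearts (log2 difference -0.15, 95% interval -0.62 to 0.32). Both overlapped. Myh7, the slow myosin raised in stressed mouse heart, read 12986, 8433 and 8143 units in dko hearts, against 7783, 7145 and 7815 units in mdx hearts. The groups did not overlap there, with an interval that included 0 (0.34, -0.55 to 1.23). Its other probe set, much dimmer, was lower with overlap, and its interval excluded 0 (-0.53, -0.92 to -0.13). The stretch-responsive Ankrd1 was bright and alike (28992, 32357 and 26780.2 in dko and 27884, 25376 and 30185 in mdx; 0.078, -0.38 to 0.54). Ccn2, connective tissue growth factor, had the largest positive difference of the stress and matrix lists, at 10546, 7408 and 14296 units in dko hearts, against 3612, 5677 and 5555 units in mdx hearts (log2 difference 1.07, 95% interval 0.20 to 1.95, adjusted p = 0.88). All its dko arrays lay above all mdx arrays, with a smaller step in pair 2. Of 24 stress genes 15 were positive, with a median of 0.10, 0 called, 2 at an unadjusted p under 0.05 and higher, and 1 lower, which was Acta1. Of all probe sets 46.3% were positive, and 2.03% were higher and 3.35% lower at such a p. Pln and Spp1 had no probe set with 1 symbol and are not described.

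Matrix genes had a median of -0.016 over 46 genes, 22 of them positive, and 43 of 46 intervals lay within 2-fold. With 1 pair left out the median was positive whichever pair it was, at 0.028 to 0.048. The fibrillar collagens Col1a1 (5042, 5032 and 11926 in dko and 5109, 4245 and 11165 in mdx; 0.10, -0.29 to 0.50) and Col3a1 (0.27, -0.21 to 0.75) overlapped. So did Postn, a matrix protein of activated fibroblasts (0.35, -0.083 to 0.78), the protease inhibitor Timp1 (0.38, -0.15 to 0.91) and tenascin Tnc (-0.0068, -0.63 to 0.61). For Postn and Timp1 the difference came mostly from pair 3 (0.82 and 0.76). Timp1 had a second, dim probe set of opposite sign (-0.69). Besides Ccn2, 2 genes were named for their size after the values were seen. Lox, which cross-links collagen, read 515.5, 297.4 and 353.7 units in dko hearts, against 32.5, 223 and 295.8 units in mdx hearts, without overlap (log2 difference 0.73, 95% interval -0.015 to 1.48), but its other probe set read -0.043. Timp3, another protease inhibitor, read 10183, 10984 and 9301 units in dko hearts, against 5609.5, 10165 and 6496 units in mdx hearts, with overlap (log2 difference 0.49, 95% interval 0.027 to 0.94). The basement membrane collagen Col4a2 had the largest negative difference (-0.32, -0.75 to 0.11).

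**Figure D3:**
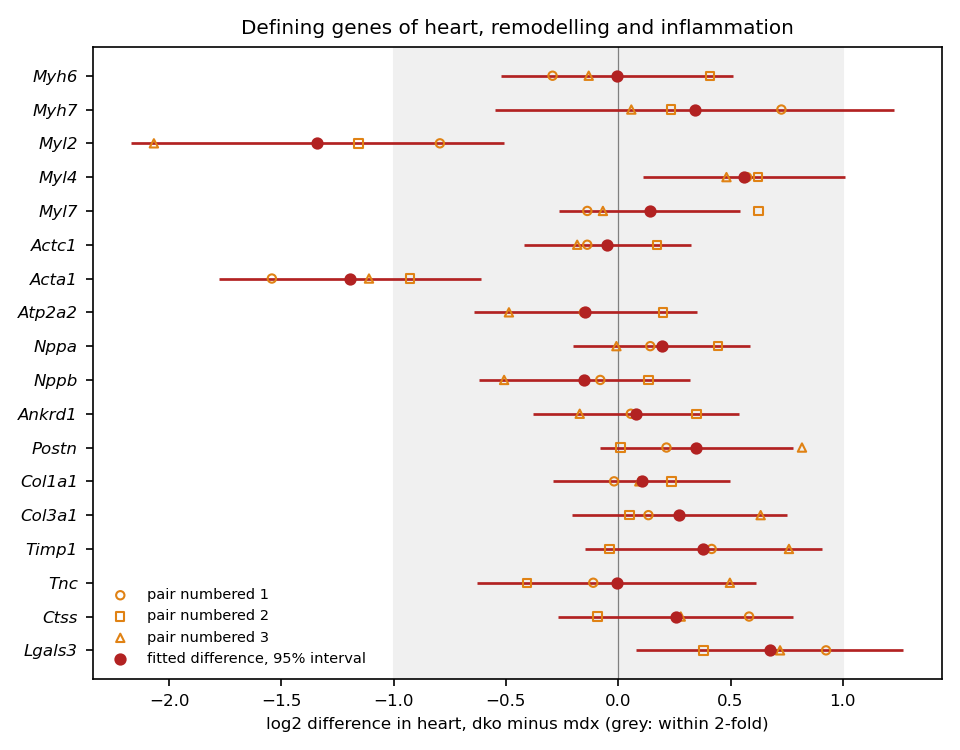
Log2 difference (dko minus mdx) of 18 genes in heart, with the fitted value and its 95% interval in red and the 3 pair differences as open symbols; the grey band marks 2-fold in either direction. The intervals of Acta1 and Myl2 lie below 0 and reach past 2-fold, those of Myl4 and Lgals3 lie above 0, and the other 14 cross 0.

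Atrial genes had a median of 0.14 and ventricular genes of -0.03 over 13 and 6 genes. Myl4, the light chain of atrial and embryonic myosin, read 18617, 14724 and 24521 units in dko hearts, against 12458, 9509.7 and 17512 units in mdx hearts (log2 difference 0.56, 95% interval 0.11 to 1.01), higher in 3 of 3 pairs, while its dimmer probe set had the opposite sign (-0.34). Sln, sarcolipin, an atrial inhibitor of the calcium pump, read 1001, 441.5 and 110.7 units in dko hearts, against 579.9, 328.6 and 45.5 units in mdx hearts (log2 difference 0.44, 95% interval 0.057 to 0.83) and varied more between arrays than between genotypes. The orphan receptor Nr2f2, an atrial factor, was the most negative (-0.24). Of the ventricular genes Hand1 (0.47, but -0.18 on its dimmer probe set) was at the upper end and Myl2 (-1.34) at the lower. The medians of the pairs were 0.14, 0.30 and -0.068 for atrial genes and 0.0096, 0.23 and -0.41 for ventricular genes. Without the pair numbered 2 the atrial median was -0.092. The part of the chambers' shares in the differences was not tested.

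Genes of calcium handling and excitation lay around 0. Of 20 calcium handling genes 10 were positive, and the exchanger Slc8a1 (16769, 22798 and 19745 units in dko hearts, against 14913, 18824 and 13195 units in mdx hearts; log2 difference 0.34, 95% interval 0.022 to 0.66) and the calcineurin subunit Ppp3ca (0.29, 0.012 to 0.56) had an unadjusted p under 0.05. Of all probe sets 46.3% were positive and 2.03% were higher at such a p. Other probe sets of Slc8a1 had the opposite sign (-0.13 and -0.32). Ion channels and gap junctions had a median of 0.048, between the channel subunit Kcnab2 (0.47, and 0.62 without overlap on 102892_at) and the vascular connexin Gja4 (-0.45). Cardiac transcription factors had a median of 0.12, between Tead1 (0.49, but -0.29 on 104233_at) and the valve factor Nfatc1 (-0.40). Adrenergic and G protein signalling had a median of 0.078, between Gnaq (0.23) and the phosphodiesterase Pde4b (-0.088), and all 14 intervals lay within 2-fold. In the dystrophin-associated complex 10 of 18 genes were positive (median 0.015), from alpha-sarcoglycan Sgca (0.21, but -0.19 on its similarly bright 103395_at) down to Utrn, and 17 of 18 intervals lay within 2-fold. Integrin and costamere genes had a median of 0.0067, between the fibronectin receptor chain Itga5 (0.63) and the keratin Krt8 (-0.38).

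Some metabolic lists had narrow intervals throughout. All 20 genes of the tricarboxylic acid cycle and all 28 of fatty acid uptake and oxidation had intervals within 2-fold, with medians of 0.031 and 0.026. The ends were Pdha1 (0.28) and Idh3a (-0.26) in the cycle, and Decr1 (0.31) and Cpt2 (-0.36) in oxidation. Decr1, which prepares unsaturated fatty acids for oxidation, read 6536, 7909 and 8495 units in dko hearts, against 5765, 6067 and 6439.8 units in mdx hearts, without overlap. Oxidative phosphorylation had a median of -0.025 over 56 genes, with 54 intervals within 2-fold. Its ends were Ndufa2 of complex I (0.45) and the muscle cytochrome oxidase subunit Cox6a2 (-0.76), which read 660.7, 6535 and 29178 units in dko hearts, against 3179.7, 7632 and 30146 units in mdx hearts and followed the array number. Glycolysis and glycogen genes had a median of -0.016, between the glucose transporter Slc2a1 (184.1, 462.5 and 595 units in dko hearts, against 153.8, 110.3 and 213.1 units in mdx hearts; log2 difference 0.77, 95% interval 0.27 to 1.27) and the lysosomal glucosidase Gaa (2555, 4913 and 7635 units in dko hearts, against 8114, 5406 and 11417 units in mdx hearts; log2 difference -0.77, 95% interval -1.34 to -0.20). Slc2a1 was higher and Gaa lower in 3 of 3 pairs, with overlap on both. In the small list of creatine kinases and oxygen binding, Mb, myoglobin, was at the upper end (0.25) and Car3 at the lower.

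The list with the highest median was that of the glucocorticoid and fasting response (0.18; 17 of 24 positive, 0 called), but its pair medians were 0.46, -0.17 and 0.35 and pair 2 ran the other way. With each pair left out in turn the median ran from 0.029 to 0.44. Metallothionein Mt2, which stress hormones and metals induce, read 21216, 8196 and 14641 units in dko hearts, against 7830.2, 11164 and 6229 units in mdx hearts (log2 difference 0.73, 95% interval -0.13 to 1.59), and its sister Mt1 had the list's largest negative difference (-0.20). Dbp was its most positive member. Heat shock and oxidative stress genes had a median of 0.058. The chaperone Hsph1 was their lower end and did not overlap (1842, 2144 and 2182 units in dko hearts, against 2568, 3069 and 2998 units in mdx hearts; log2 difference -0.45, 95% interval -0.73 to -0.18), and the small heat shock protein Hspb1 their upper end (0.57). Immediate early genes had a median of 0.034, between Gadd45b (0.76) and Egr1 (-0.47, but 0.33 on its dimmer 161802_i_at).

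Genes of protein turnover had a median of -0.0075, with all 31 intervals within 2-fold. The proteasome subunit Psmb1 was lower on every dko array on 160875_at (4705, 5686 and 5462 units in dko hearts, against 6773, 7719 and 7382 units in mdx hearts; log2 difference -0.45, 95% interval -0.70 to -0.20) but overlapped on the similarly bright 98113_at (-0.084) and on the dim 161923_at (0.25), and the lysosomal membrane protein Lamp2 was the upper end (0.39). Chemokine, cytokine and complement genes had a median of -0.081. The monocyte attractant Ccl2 was their most positive member (0.45, -0.27 to 1.16), and Cxcl14 the most negative (192.6, 100.1 and 220.3 units in dko hearts, against 298.1, 405.7 and 483.9 units in mdx hearts; log2 difference -0.74, 95% interval -1.24 to -0.24), without overlap. Cell division genes had a median of -0.025, between the cyclin Ccnd2 (0.39) and the replication helicase subunit Mcm5 (-0.67). Ribosomal protein genes had a median of -0.045, between Rps4x (0.21) and Rps28 (-0.46).

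Markers of the remaining cell types had medians from -0.15 to 0.028. Erythroid markers (-0.15) ran from Epb42 (0.32) to Alas2, the first enzyme of haem synthesis in red cells (-0.46), and the globin Hba-a1 read 1191, 2395 and 20871 units in dko hearts, against 943.7, 1619.9 and 28878 units in mdx hearts, with both arrays numbered 3 far above the others. Endothelial markers (-0.0011) ran from Sox17 to the adhesion molecule Icam2 (-0.35). Smooth muscle and pericyte markers (-0.069) ran from calponin Cnn1 (0.28) to Pdgfrb (-0.16). Nerve and Schwann cell markers (-0.048) ran from Chga (0.43, but -0.14 on its dimmer probe set) to the neurofilament Nefh (-0.51). Mesothelial and valve markers (-0.02) ran from Krt7 (0.43) to Krt8, lung markers (-0.047) from the surfactant proteins Sftpd (0.28) to Sftpb (-0.23), and thymus and lymph node markers (0.028) from Rag1 to Ccl25 (-0.26). Without the pair numbered 3 the medians turned to 0.19 for erythroid, 0.14 for lung and 0.036 for smooth muscle markers, and to 0.026 for those of neutrophils and mast cells. No marker read 0 on a heart array, the lowest reading being 8.3 units. Of the 39 lists 0 held a called gene.

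**Figure D4:**
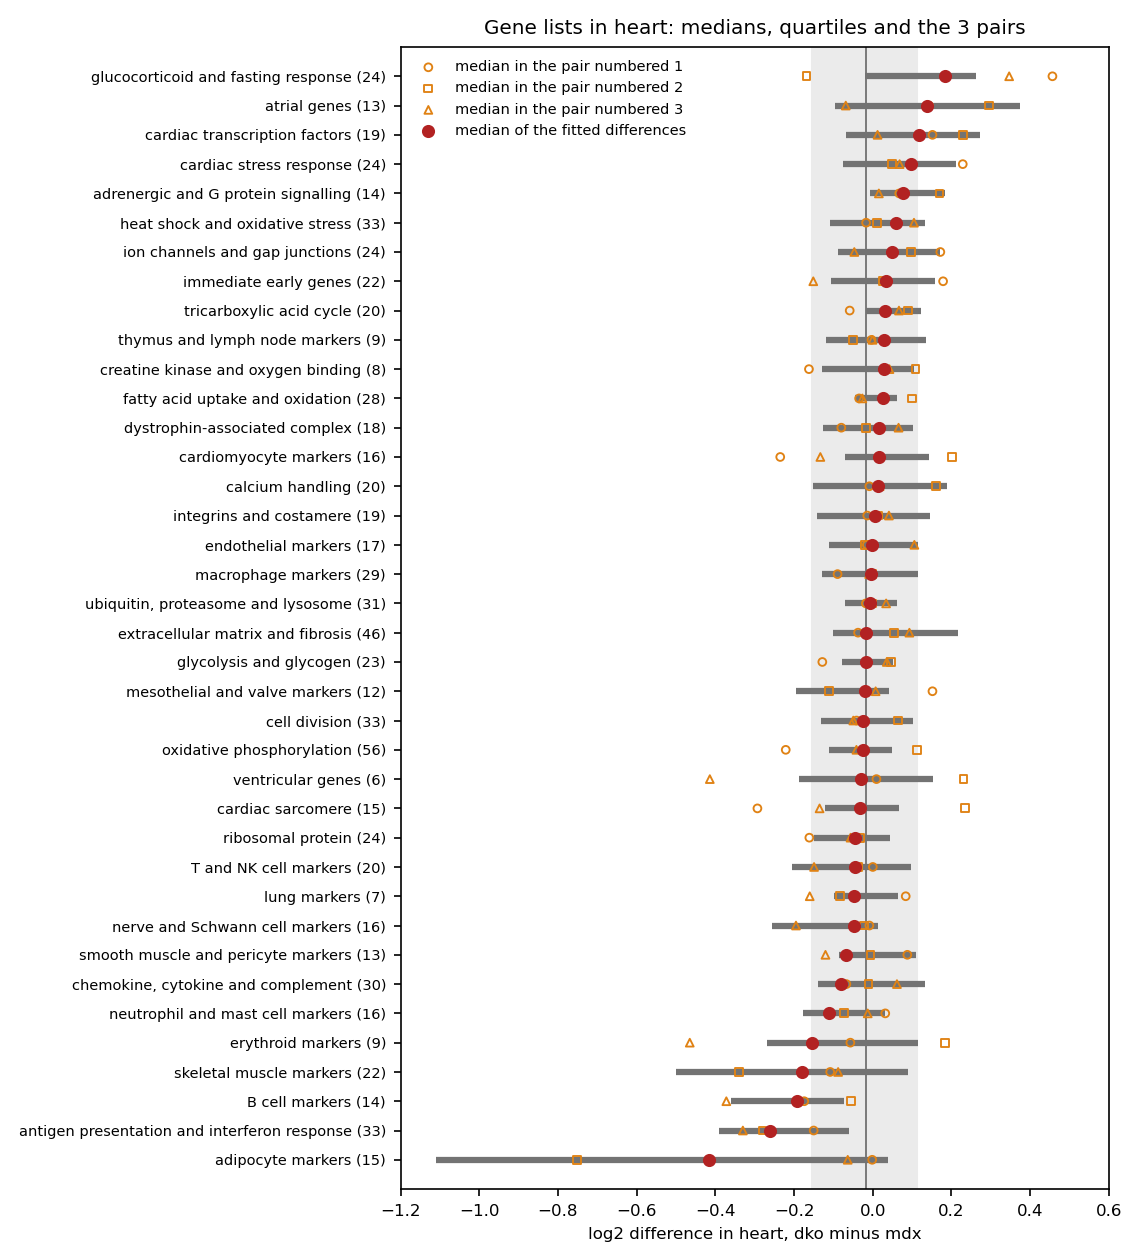
Median log2 difference (dko minus mdx) of each gene list in heart (red), with its quartiles (grey bar), the medians within each of the 3 pairs (open symbols) and the number of genes measured in parentheses; the vertical line and band are the median and quartiles of all 12422 probe sets. Antigen presentation, B cell, skeletal muscle and adipocyte lists have all 3 pair medians below 0, and the adipocyte list is drawn low mostly by pair 2.

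The heart was then set beside the same comparison in leg and extraocular muscle. In leg 89 of 12422 probe sets (0.716%) were called, 74 higher (0.596%) and 15 lower in dko (0.121%). In extraocular muscle 8 (0.0644%) were called, 7 higher (0.0564%) and 1 lower (0.00805%), and in heart 0. The 74 called higher in leg had a median of 0.010 in heart, with 39 positive and 35 negative, against 1.07 in leg. The 15 called lower in leg had a median of -0.15 in heart, with 9 negative. The 7 called higher in extraocular muscle had a median of 0.26 in heart, with 6 positive, and the 1 called lower there, Ucp1, also had a negative difference in heart. A difference between tissues is shown only where the difference itself passes, and 4 probe sets (0.0322%) passed for heart against leg, all lower in heart (heart minus leg below 0). Against extraocular muscle 0 passed (0%; smallest adjusted p 0.505, with 719, or 5.79%, at an unadjusted p under 0.05, by limma).

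The 4 genes were parts of the contractile apparatus and 1 channel subunit. For Myl2 the log2 difference was -1.34 in heart and 4.05 in leg, a gap of -5.39 (SE 0.52, adjusted p = 0.0104); in leg it read 18139, 14862 and 25842 units in dko legs, against 2478, 309.2 and 1094 in mdx legs. For Acta1 the values were -1.19 in heart and 1.90 in leg, a gap of -3.10 (SE 0.37, adjusted p = 0.0311). Leg arrays read 1282, 1915 and 20656 units in dko legs, against 256.1, 247.7 and 6656 in mdx legs, with dko the higher of each leg pair and the lower of each heart pair. Tnnc1, the troponin C of heart and slow fibres, had 0.011 in heart and 2.48 in leg, a gap of -2.47 (SE 0.23, adjusted p = 0.0104). Kcne1l, an accessory subunit of potassium channels, was dim in heart (57.5, 71.9 and 46.7 in dko and 76.7, 54.2 and 123 in mdx; -0.15) and changed by 1.80 in leg, a gap of -1.95 (SE 0.23, adjusted p = 0.0311). Its leg arrays read 958.8, 1253 and 2077 units in dko legs, against 85, 238.6 and 663.4 in mdx legs. These 4 calls rest on the pairing: without the replicate block 0 passed, and 0 without the heart arrays numbered 3.

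A list of 32 genes called in either skeletal muscle by an earlier analysis of these arrays had a median of 0.0064 in heart, 1.08 in leg and 0.42 in extraocular muscle; it was chosen on these samples. In heart 23 of 32 intervals lay within 2-fold and 3 observed differences were past it, while 20 were past it in leg. Complement genes C1qc (-0.11, -0.41 to 0.20) and C1qb (-0.087) of macrophages, the proteoglycan Bgn (-0.025, -0.32 to 0.27) and elastin Eln (-0.038, -0.42 to 0.34) were bright in heart and lay near 0. So did the macrophage receptors Csf1r (0.086) and Lilr4b (0.0021), and the tubulin Tubb2a (-0.0063), on their brightest probe sets. Dimmer ones read -0.33 for Csf1r and 0.61 for Tubb2a. Genes of regenerating muscle were dim in heart: the embryonic and perinatal myosins Myh3 (105.9, 21.3 and 63.5 units in dko and 62.7, 29.3 and 43.3 in mdx) and Myh8, and the acetylcholine receptor subunits Chrna1 (-0.11) and Chrnd (-0.012). The slow fibre genes Tnnt1 (-0.52), Tnni1 (0.36) and Tpm3 (-0.24) differed in sign. Matrix and macrophage genes with positive values were Col5a2 (0.34), Mmp3 (0.35), S100a4 (0.30) and Mpeg1 (0.35), each with an interval that included 0. The difference between heart and leg was called for 3 of the 32 (Myl2, Acta1 and Tnnc1), and that between heart and extraocular muscle for 0.

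**Figure D5:**
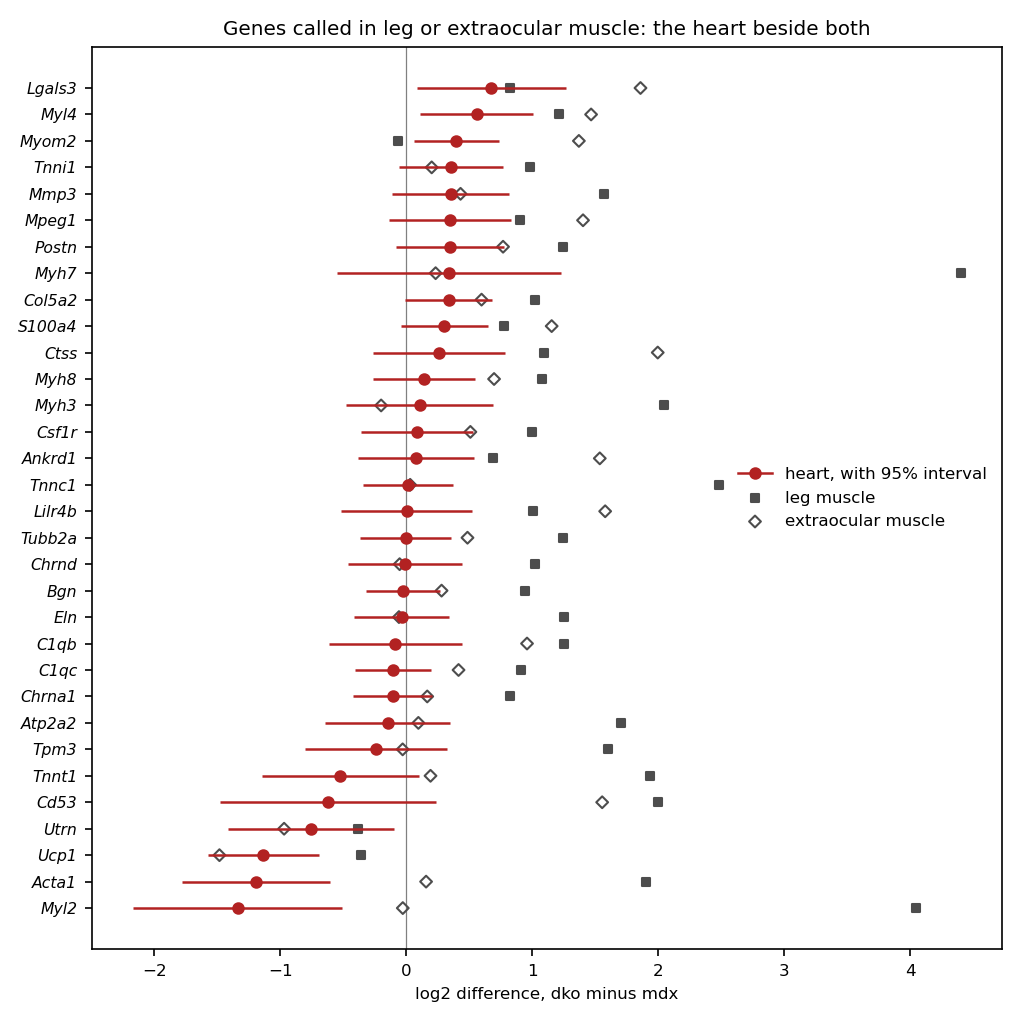
Log2 difference (dko minus mdx) of 32 genes called in leg or extraocular muscle by an earlier analysis, in heart (red, with 95% interval), leg (filled squares) and extraocular muscle (open diamonds). Most heart values lie between -0.6 and 0.6, most leg values near or above 0.8, and for 30 of the 32 genes the leg value lies outside the heart interval. The genes were chosen on these arrays for their change in those muscles, and the error of the leg value is not shown. The difference between heart and leg itself was called for 3 of the 32.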

How the data were processed

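RNA of 18 samples was hybridized to Affymetrix mouse arrays by the maker's standard protocol, per the labels. The authors deposited 1 linear intensity per probe set and array; the 2%-trimmed means of all arrays lie between 1500.69 and 1501.15 units, so the deposited intensities had been scaled to a common level. The software, the background step and detection calls are not given in the sources used here, and the number of scanned features behind a value is not known.

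Of 12488 probe sets, 66 controls were left out. Of the other 12422, 10833 have 1 gene symbol (8251 genes), 396 several and 1193 none in the platform annotation, and 10817 symbols were matched to RefSeq by gene ID; the list values use 1 probe set a gene. Before log2, every intensity was raised by 166.7 units, which is the median over arrays of the 25th percentile. All 18 arrays entered 1 model (limma 3.58.1, R 4.3.3) whose block was the replicate number of each tissue, which left 6 residual degrees of freedom beside 3.62 of the prior. P-values were adjusted over 12422 probe sets by the Benjamini-Hochberg method; a call is an adjusted p under 0.05. The pairing by number comes from the titles; same-numbered dko and mdx hearts deviated together (r = 0.568, 0.432 and 0.697). Detectable sizes were computed from each probe set's standard error and the noncentral t distribution. The limma script was tested on simulated data, and figures were drawn with matplotlib 3.10.9.

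Members and lists were chosen with earlier results of these data known. Named are all probe sets of Utrn and Dmd, in each direction the 12 genes with the smallest p among those alike in 3 of 3 pairs and above the 40th percentile (none being called), the largest positive and negative member of each list, defining heart genes, genes called in either skeletal muscle earlier, and the calls for heart against leg. Further genes were named after their values were seen: Cd83, Casq1, Myl1, Tnni3, Slc8a1, Ppp3ca, Lox, Timp3, the members of the antigen list, the fat genes and the probe sets without a gene name. Alternatives were no block or a common block, heart arrays alone, 2 other scalings, 2 offsets, a filter on low values, a trended prior and leaving out pairs or arrays numbered 3.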

Additional observations from a re-analysis of the deposited data

Results flagged for a closer look

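The log2 difference between dko and mdx differed between heart and leg for 4 genes, by the interaction term of the limma fit over all 12422 probe sets. Heart minus leg was -5.39 for Myl2 (adjusted p = 0.0104), -3.10 for Acta1 (0.0311), -2.47 for Tnnc1 (0.0104) and -1.95 for Kcne1l (0.0311). In heart dko was lower than mdx in 3 of 3 pairs for Myl2 and Acta1 and in 2 of 3 for Tnnc1 and Kcne1l, and in leg dko was higher in 3 of 3 pairs for all 4. The call of Acta1 and of Kcne1l was lost without the replicate block, with a block common to all tissues, with a 4-fold smaller offset and with any 1 heart pair left out. That of Myl2 was lost without the block, with the common block and without the heart pair numbered 2 or 3, and that of Tnnc1 without the block and without the pair numbered 3. On leaving out all 6 arrays numbered 3 the adjusted p of each was 0.384.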

How the results depend on the processing

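No probe set was called higher in heart under any of 12 alternatives or the 1 added after seeing the data. Called lower were 1 with the offset doubled (101869_s_at, adjusted p = 0.0453), 1 with a limma prior variance that follows the mean (101869_s_at, 0.0103), and 0 to 1 when the heart pairs were left out in turn, the 1 being Igkv6-23 without the pair numbered 1 (adjusted p = 0.0485). Over all settings the smallest adjusted p in heart ran from 0.0103 to 1, and with only the 8888 probe sets above a filter on low values it was 0.055. With no replicate block 0 were called in heart, and the 4 lower calls for heart against leg became 0. Those 4 became 2 with a 4-fold smaller offset, 7 with double, 13 (and 2 higher) with the trended prior, 0 to 2 with a heart pair left out, and 0 without all 6 arrays numbered 3, the alternative added after seeing the data. Heart against extraocular muscle gave 0 in every setting run. The heart arrays alone give no comparison with another tissue. The median reach of the 95% interval on either side was 0.604 without the replicate block, 0.554 with a 4-fold smaller offset, 0.32 with double, 0.493 to 0.507 with a pair left out, and 0.48 without the arrays numbered 3. Fewer arrays and the offset's size set these widths by construction, and the cause of the other shifts was not tested.

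Among single genes, Utrn stayed negative in all settings, while Dmd turned to -0.13 without the arrays numbered 3 and ran from -0.13 to 0.18 with a pair left out. The log2 differences that turned sign follow. Without the arrays numbered 3 they were Tnnt3 -0.0333, Myh6 0.0581, Nppb 0.0274, Actc1 0.0173, Atp2a2 0.023, Eln 0.15, Krt8 0.0301, Pde4b 0.0738, Chrnd 0.19 and Lilr4b -0.17. With a common 75th percentile they were Myh6 0.005377, Tnc 0.00577 and Tubb2a 0.004267, with quantile normalization Myh6 0.12, Actc1 0.0282, Tnc 0.0651 and Chrnd 0.004995, and with double the offset Tnc 0.002736 and Lilr4b -0.005921. With each pair left out in turn, the genes that crossed 0 were Actc1 (-0.16 to 0.0173), Ankrd1 (-0.0579 to 0.20), Atp2a2 (-0.32 to 0.023), Bgn (-0.0678 to 0.0502), C1qb (-0.18 to 0.019), Chrna1 (-0.27 to 0.0152), Chrnd (-0.26 to 0.19), Cnn1 (-0.16 to 0.57), Csf1r (-0.002762 to 0.21), Eln (-0.20 to 0.15), Gja4 (-0.76 to 0.0123), Hba-a1 (-0.0877 to 0.41), Krt8 (-0.70 to 0.0301), Lilr4b (-0.17 to 0.17), Mb (-0.20 to 0.47), Myh6 (-0.21 to 0.14), Myl7 (-0.10 to 0.28), Nfatc1 (-0.77 to 0.28), Nppb (-0.29 to 0.0274), Pde4b (-0.24 to 0.0738), Tnc (-0.26 to 0.19), Tnnc1 (-0.22 to 0.17), Tnnt1 (-0.89 to 0.0107), Tnnt3 (-0.0333 to 0.77), Tpsb2 (-0.20 to 1.19) and Tubb2a (-0.11 to 0.0564). Of the other values of named genes under the alternatives, 1900 kept their direction and side of the threshold and 3 gained a call. No scaling moved the median of all probe sets by more than 0.1. The arrays' number limits the precision, and probe sets near background are compressed by the offset.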
